A study of Mus musculus with 11 samples.

Results

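SeC(e)TCA is the gene of the selenocysteine tRNA that is counted as chr7.trna86-SeC(e)TCA in small RNA libraries of the embryonic mouse frontal lobe. It is 1 of 433 tRNA genes in the count files, and it was picked by its counts in these libraries, as the most counted single gene, with its difference between genotypes at E18.5 already known. The 11 samples came from the brain frontal lobe of C57BL/6 embryos without any treatment named in the labels. There were 4 Nsun2-/- and 4 wild-type samples of embryonic stage E18.5, and 2 Nsun2-/- and 1 wild-type samples of stage E13.5. The methods describe 2 Nsun2 knockout lines, D014D11 and MBKW, and the labels do not say which of them gave these embryos. Neither Nsun2 nor markers of brain cells are among the counted genes, so genotype and tissue rest on the labels. Each library sums many cells, so that fewer cells of a type and less of a tRNA per cell cannot be told apart.

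The selenocysteine tRNA reads UGA, a codon that otherwise stops translation, and inserts selenocysteine there. It is charged with serine by seryl-tRNA synthetase, and the serine is then phosphorylated by PSTK and turned into selenocysteine by SEPSECS. The elongation factor EEFSEC carries it to ribosomes at messages with a SECIS element, and the proteins made in this way include glutathione peroxidases and thioredoxin reductases, which protect neurons from oxidation. NSUN2, the enzyme absent in the knockout, methylates cytosines of many tRNAs at carbon 5.

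The study lists sequences of reads assigned to this gene, in full length and shorter, and its lists for both stages are pooled here. The paper cites these lists for tRNA-derived small RNAs that differed in abundance between genotypes. Positions are counted from 1 at the 5′ end of the full-length tRNA with its CCA end, 90 nt in all. The full-length read is shown for its anticodon, in capitals, at positions 36 to 38.

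full length: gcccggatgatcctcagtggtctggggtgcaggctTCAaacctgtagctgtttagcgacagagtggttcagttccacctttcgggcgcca

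Reads that start at position 13 and run through the CCA end are listed with 3 different bases at position 71 in the T loop, shown in capitals. Mammalian tRNAs often carry 1-methyladenosine in this loop, a base that reverse transcriptase misreads. Against the form with A, the others are A71G and A71T, and which base the genome holds at this position was not looked up here. The full-length read above has G at this position, and the anticodon-loop and 3′ reads below have T. Position 71 was picked as the one that varied most among the listed sequences. Listed sequences that differ from the most common base at any other position were left out, so variation elsewhere is not shown.

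from position 13, A: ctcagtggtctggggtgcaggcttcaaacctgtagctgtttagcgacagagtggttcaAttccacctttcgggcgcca
from position 13, G: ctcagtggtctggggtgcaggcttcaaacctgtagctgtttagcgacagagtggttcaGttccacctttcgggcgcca
from position 13, T: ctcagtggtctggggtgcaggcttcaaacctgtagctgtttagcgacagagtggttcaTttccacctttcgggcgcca

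Shorter reads are listed too, and 3 of them are shown because each covers a different part of the molecule. The first starts in the anticodon loop at position 34 and has the anticodon in capitals, the second is the 32 nt up to the CCA end, with CCA in capitals, and the third is the first 24 nt, with no capitals.

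anticodon loop to CCA: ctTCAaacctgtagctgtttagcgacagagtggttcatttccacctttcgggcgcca
3′ fragment: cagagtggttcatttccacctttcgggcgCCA
5′ fragment: gcccggatgatcctcagtggtctg

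The deposited files give 1 count per gene, which does not separate full-length tRNA from fragments, and no file used here ties the listed sequences to that count. The gene lies at chr7:19886573-19886698 on the plus strand of mm9, the build named in the header of the count files. This counted interval of 126 nt is 39 nt longer than the tRNA without its CCA end, and the median interval of all 433 genes has 112 nt. No other counted interval overlaps it, the nearest being 9271300 nt away, so its reads could not be shared with a neighbouring tRNA gene. Whether it lies within another gene was not analysed here, since no annotation of this build was used. The other row named for selenocysteine, chr5.trna13-SeCTCA at chr5:5627661-5627771, had 0 counts in all 11 samples, where 3 counts would have been 0.031% to 0.075% of a sample.

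SeC(e)TCA was counted at least 278 times in every sample. At E13.5 the Nsun2-/- samples had 675 and 462 counts of it, and wild-type had 422. At E18.5 the Nsun2-/- samples 1 to 4 had 303, 343, 318 and 278 counts, and the wild-type samples 1 to 4 had 298, 315, 297 and 286. The highest counts were thus all at E13.5, and at E18.5 the counts of the genotypes overlapped, with means of 310.5 ± 27.2 in Nsun2-/- and 299.0 ± 12.0 in wild-type samples (SD, n = 4 each).

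The other tRNA genes did not have equal counts in these libraries. At E13.5 the tRNA counts totalled 9827 and 5481 for Nsun2-/- and 6811 for wild-type. At E18.5 the totals were 4446, 4718, 5027 and 4011 for Nsun2-/- and 5387, 5790, 5463 and 5924 for wild-type. The E18.5 totals did not overlap between genotypes, and the counts of all genes but SeC(e)TCA averaged 4240 in Nsun2-/- and 5342 in wild-type samples, a ratio of 0.794. The E18.5 difference described below is therefore one of share, with a mean SeC(e)TCA count in Nsun2-/- of 1.04 times that in wild-type samples. The files hold no measure of RNA input or of reads outside tRNA genes, and whether total tRNA differed between genotypes was not tested.

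As a share of the tRNA counts, SeC(e)TCA made up 4.83% to 8.43% of a sample, with a mean of 6.37% over the 11 samples. An even split over the 315 genes with any counts would give each 0.32%. At E13.5 its share was 6.87% (95% Wilson interval, 6.39% to 7.39%) and 8.43% (7.72% to 9.19%) for Nsun2-/-, and 6.20% (5.65% to 6.79%) for wild-type. At E18.5 it was 6.82%, 7.27%, 6.33% and 6.93% for Nsun2-/- and 5.53%, 5.44%, 5.44% and 4.83% for wild-type. These intervals cover counting error only, as reads without molecular identifiers are not independent molecules.

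**Figure D1:**
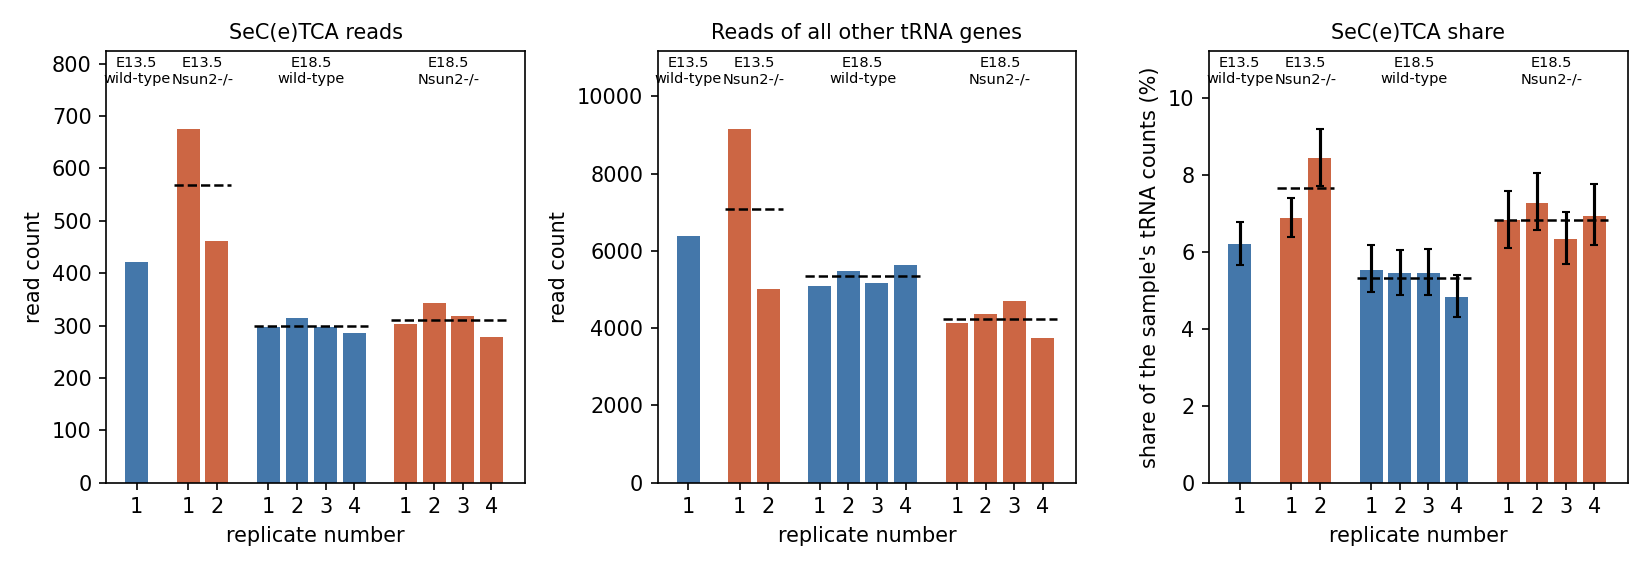
Bars give the SeC(e)TCA read count, the read count of all other tRNA genes, and the SeC(e)TCA share in percent for each sample by replicate number, in blue for wild-type and orange for Nsun2-/-, with dashed lines for group means and error bars for 95% Wilson intervals. At E18.5 the SeC(e)TCA counts of both genotypes lie between 278 and 343, the other counts are lower in every Nsun2-/- sample, and all 4 Nsun2-/- shares lie above all 4 wild-type shares.

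The groups were ordered by mean share as E13.5 Nsun2-/- (7.65% ± 1.1, SD, n = 2), E18.5 Nsun2-/- (6.84% ± 0.39, SD, n = 4), E13.5 wild-type (6.20%, 1 sample) and E18.5 wild-type (5.31% ± 0.32, SD, n = 4). The Nsun2-/- groups of the 2 stages overlapped. The interval of the E13.5 wild-type sample reached into the range of the E18.5 Nsun2-/- samples, although its share lay below all 4 of them. It lay above all 4 E18.5 wild-type samples.

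The spread of the share within a group was set beside the SD that counting error alone would give, which with so few samples does not show how much of it is biological. At E18.5 counting error gives an SD of 0.375% in Nsun2-/- samples, where 0.391% was measured, and of 0.299% in wild-type samples, where 0.324% was measured. At E13.5 the 2 Nsun2-/- samples differed by more, with an SD of 1.1% against 0.313% from counting. The totals of these 2 samples were also the furthest apart of any group.

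Among single genes SeC(e)TCA came first or second throughout. It had the highest count of all 433 genes in 9 of 11 samples and the second highest in E18.5 wild-type samples 2 and 4. The gene just below it by mean share was chr10.trna81-GluCTC, a glutamate tRNA gene, with 5.22% of the counts on average and 3.79% to 6.48% in single samples. The next was chr1.trna699-GlyGCC, a glycine tRNA gene, with 3.36% on average and 1.97% to 4.92% in single samples. The 95% Wilson intervals of SeC(e)TCA and the glutamate gene were apart in 5 of 11 samples, all with SeC(e)TCA higher. The gene was picked as the most counted one in these libraries, so its lead restates that choice. Overlap of 2 such intervals does not decide the order of 2 counts, so the order in the other samples was not tested.

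**Figure D2:**
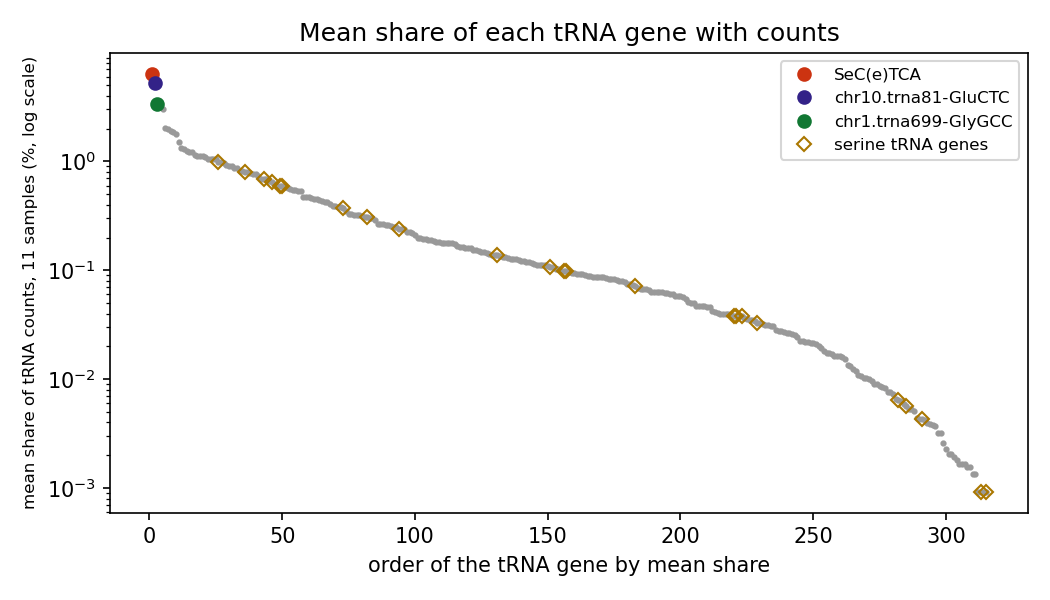
Each point is 1 of the 315 tRNA genes with counts, placed by its order (horizontal axis) and its mean share of the tRNA counts over 11 samples in percent on a log scale (vertical axis). SeC(e)TCA lies first at 6.37%, followed by chr10.trna81-GluCTC at 5.22% and chr1.trna699-GlyGCC at 3.36%, and the serine tRNA genes, drawn as diamonds, lie further down.

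The lead over chr10.trna81-GluCTC was higher in Nsun2-/- than in wild-type samples at E18.5 but not at E13.5. SeC(e)TCA had 1.74 and 1.56 times its count at E13.5 in Nsun2-/-, and 1.64 times in wild-type. At E18.5 the ratio was 1.32, 1.53, 1.2 and 1.13 in Nsun2-/- samples and 1.03, 0.84, 1.04 and 0.81 in wild-type samples. The ratios of the E18.5 wild-type samples, up to 1.04, lay below those of all other samples. These ratios hold the E18.5 contrast known when the gene was picked, so they restate it. How many other genes part the groups on such a ratio was not tested.

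The longer interval of SeC(e)TCA affects this order. Per 100 nt of counted interval it ranked first in 7 of 11 samples, which were all 3 at E13.5 and the 4 Nsun2-/- samples at E18.5. Among the E18.5 wild-type samples chr10.trna81-GluCTC came first on this scale in all 4, with 258.9, 334.8, 254.5 and 313.4 counts per 100 nt against 236.5, 250.0, 235.7 and 227.0 for SeC(e)TCA. The lead by count in the other 7 samples was therefore also a lead per length.

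Most tRNAs have several gene copies, and SeC(e)TCA stands alone in its family. Added up over genes with the same anticodon, it ranked between 2 and 5 in single samples and came behind HisGTG and MetCAT by mean share among 53 families. The histidine family HisGTG held 6.93% in 10 genes and the methionine family MetCAT 6.80% in 18 genes, against 6.37% in the 1 selenocysteine gene. The authors counted only reads with a single best place, so identical copies lose reads and a single-copy gene does not, and 118 of 433 genes had no count at all. The part of this in the rank of SeC(e)TCA was not tested.

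At E18.5 the share of SeC(e)TCA was higher in Nsun2-/- than in wild-type samples. As this contrast was known when the gene was picked, its values are given as a description without a p-value. The mean share was 1.29 times that of wild-type samples, and all 4 Nsun2-/- samples lay above all 4 wild-type samples. The lowest Nsun2-/- sample had 6.33% and the highest wild-type sample 5.53%. Shares of the 2 genotypes did not overlap, in either direction, for 15.1% of the 106 genes tested, and for 7.55% Nsun2-/- lay above. After TMM normalization, which sets the bulk of genes equal between libraries, the log2 fold change was 0.39 (SE 0.08), a fold of 1.31.

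Of the 106 genes tested at E18.5, 9 had a larger log2 fold change. The share of genes called at an adjusted p-value below 0.05 was 9.43% (edgeR quasi-likelihood test, Benjamini-Hochberg adjustment), 6 of them higher (5.66%) and 4 lower (3.77%) in Nsun2-/-. With upper-quartile normalization the value for SeC(e)TCA was 0.27 and fewer genes were called, 1 higher and 3 lower. With DESeq2, 6 genes were called higher and 2 lower.

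Wild-type sample 4 had the lowest share at E18.5. Without it the other 3 wild-type samples averaged 5.47% ± 0.05 (SD, n = 3), and the log2 fold change was 0.37. Some samples of 1 genotype agreed within sampling noise in a chi-square test over genes, the closest being Nsun2-/- samples 1 and 2 (p = 0.933) and wild-type samples 3 and 4 (p = 0.407). Since several pairs did so while their counts differed, all samples were kept apart. With each closest pair averaged into 1 sample the mean share was 6.77% ± 0.39 for Nsun2-/- and 5.37% ± 0.21 for wild-type (SD, n = 3 each), and with their counts added up the log2 fold change was 0.39.

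At E13.5 the direction was the same and the test did not call it. Both Nsun2-/- samples, with 6.87% and 8.43%, lay above the single wild-type sample with 6.20%. With 2 samples against 1, shares failed to overlap for 72.3% of the 155 genes tested and Nsun2-/- lay above for 32.9%. The log2 fold change was 0.31 (SE 0.19, 95% interval −0.09 to 0.70, edgeR adjusted p = 0.767). The test called 0 genes (0%) at this stage, 12 had an unadjusted p below 0.05, and DESeq2 called 0 as well. Without Nsun2-/- sample 1 the log2 fold change was 0.52, and without sample 2 it was 0.13, so each of the 2 samples moved the value by more than 1.5 times. The genotype difference at E18.5 exceeded that at E13.5 by 0.08 on the log2 scale (SE 0.23), a value given without a test since it holds the E18.5 contrast.

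**Figure D3:**
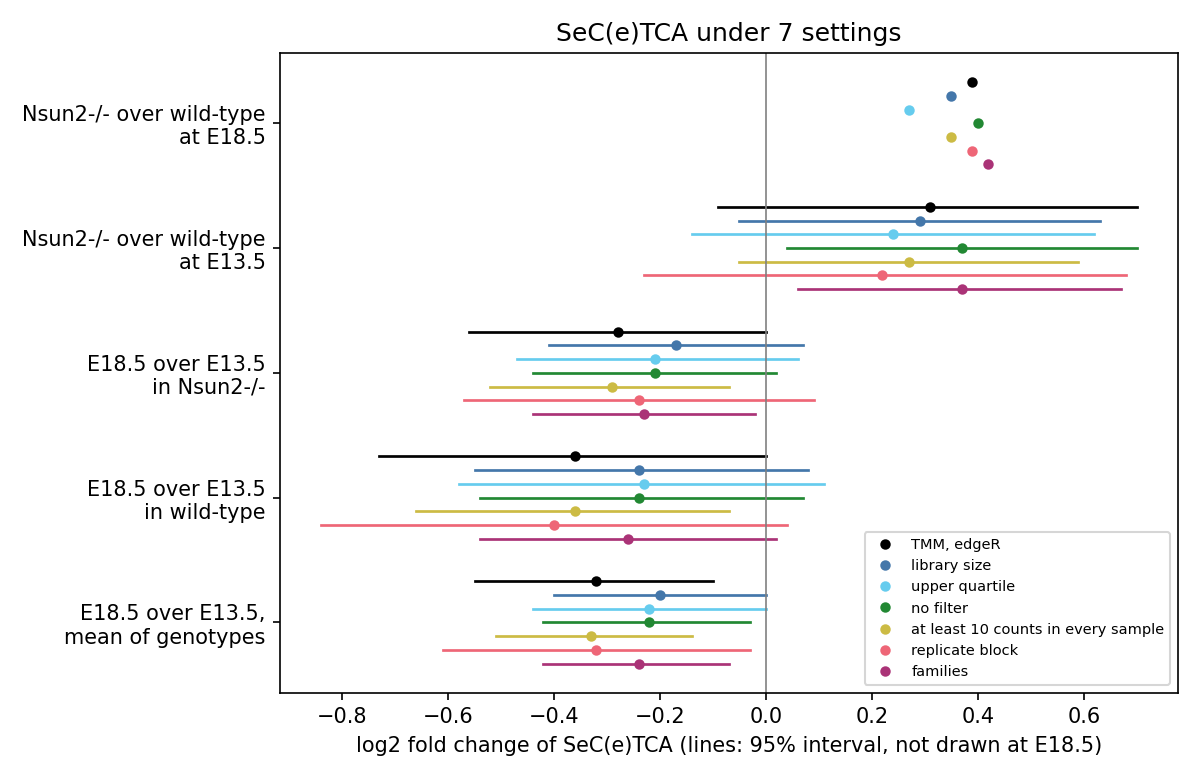
Points give the log2 fold change of SeC(e)TCA in 5 comparisons under 7 settings, with lines for 95% intervals except at E18.5, where the contrast was known when the gene was picked. Every point lies above 0 for Nsun2-/- over wild-type and below 0 for E18.5 over E13.5. Several intervals of the E13.5 genotype comparison and of the stage comparisons reach past 0.

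From E13.5 to E18.5 the estimate for SeC(e)TCA was a slight fall relative to the other tRNA genes, which most alternative fits did not call. Averaged over the genotypes, the log2 fold change was −0.32 (SE 0.11, edgeR adjusted p = 0.0273), a fold of 0.80. The test called 29% of the 155 genes in this comparison, 18 higher (11.6%) and 27 lower (17.4%) at E18.5, so that a call here was common. TMM placed the median of all genes at −0.11, and relative to this median SeC(e)TCA changed by −0.22. Its place by log2 fold change was 103 of 155, counted from the highest. The split of calls depended on the scaling, with 23 higher and 18 lower by library size only, and 17 higher and 14 lower by DESeq2.

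The stage call was kept in 7 of 18 alternative fits. The adjusted p-value was 0.126 with library size only, 0.129 with upper-quartile normalization, 0.153 with DESeq2 and 0.110 without a filter, with log2 fold changes of −0.20, −0.22, −0.23 and −0.22. Without E18.5 wild-type sample 1 or 4 the log2 fold change was −0.20 or −0.16 (edgeR adjusted p = 0.294 and 0.325), and without E13.5 Nsun2-/- sample 2 it was −0.22 (edgeR adjusted p = 0.068). The stages are compared with 3 samples at E13.5, and the stage and genotype comparisons share samples.

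Within each genotype the stage difference did not pass the test. In Nsun2-/- samples the log2 fold change was −0.28 (SE 0.14, edgeR adjusted p = 0.173), where 16.1% of the 155 genes were called. The shares of 6.33% to 7.27% at E18.5 overlapped with 6.87% and 8.43% at E13.5. Without E13.5 Nsun2-/- sample 1 the value was −0.48 (edgeR adjusted p = 0.0165), and without sample 2 it was −0.09.

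In wild-type samples the log2 fold change was −0.36 (SE 0.18, edgeR adjusted p = 0.152), where 19.4% of the 155 genes were called. The single E13.5 sample had 6.20%, above the 4.83% to 5.53% of the E18.5 samples, and 63.2% of genes had E18.5 shares that were all on 1 side of the E13.5 sample, 31.6% all below it. Without E18.5 wild-type sample 1 the value was −0.22, and without sample 4 it was −0.15. With a filter of at least 10 counts in every sample the stage differences were −0.29 in Nsun2-/- and −0.36 in wild-type samples (edgeR adjusted p = 0.0466 and 0.0439).

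For the 2 genes next in order, the same fits gave values whose difference from those of SeC(e)TCA was not tested. chr10.trna81-GluCTC had a stage difference of 0.27 (SE 0.13, edgeR adjusted p = 0.11) and genotype differences of −0.09 at E18.5 (SE 0.09, edgeR adjusted p = 0.77) and 0.30 at E13.5 (SE 0.22, edgeR adjusted p = 0.77), none of which passed the test. chr1.trna699-GlyGCC had a stage difference of 0.23 (SE 0.13, edgeR adjusted p = 0.18), and at E18.5 it was lower in Nsun2-/- by a log2 fold change of −0.55 (SE 0.11, edgeR adjusted p = 0.0071). It did not pass the test between stages, nor between genotypes at E13.5, where its value was −0.47 (SE 0.22, edgeR adjusted p = 0.63).

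Serine tRNAs are charged by the same synthetase as the selenocysteine tRNA. The serine list held 24 rows, of which 23 had counts, with SerGCT, SerAGA and SerCGA the largest families. Serine tRNA genes together made up 5.52% and 5.73% of the counts at E13.5 in Nsun2-/-, and 5.08% in wild-type. At E18.5 they made up 5.69%, 5.47%, 6.23% and 5.39% in Nsun2-/- and 6.70%, 6.36%, 6.17% and 6.72% in wild-type samples. The ranges of the genotypes met at E18.5, where the lowest wild-type sample lay just below the highest Nsun2-/- sample.

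The 1 selenocysteine gene was counted more often than all serine genes together in 7 of the 11 samples. Per 100 serine tRNA counts there were 124.5 and 147.1 SeC(e)TCA counts at E13.5 in Nsun2-/-, and 122.0 in wild-type. At E18.5 there were 119.8, 132.9, 101.6 and 128.7 in Nsun2-/- samples and 82.5, 85.6, 88.1 and 71.9 in wild-type samples. All samples but the E18.5 wild-type samples were above 100. This ratio also restates the E18.5 contrast known when the gene was picked, and how many other genes part the groups in this way was not tested. The E18.5 means of 120.8 ± 13.9 and 82.0 ± 7.16 (SD, n = 4 each) differ by a ratio of 1.47, larger than the 1.29 of the shares, as the mean serine share in Nsun2-/- was 0.878 times that in wild-type.

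**Figure D4:**
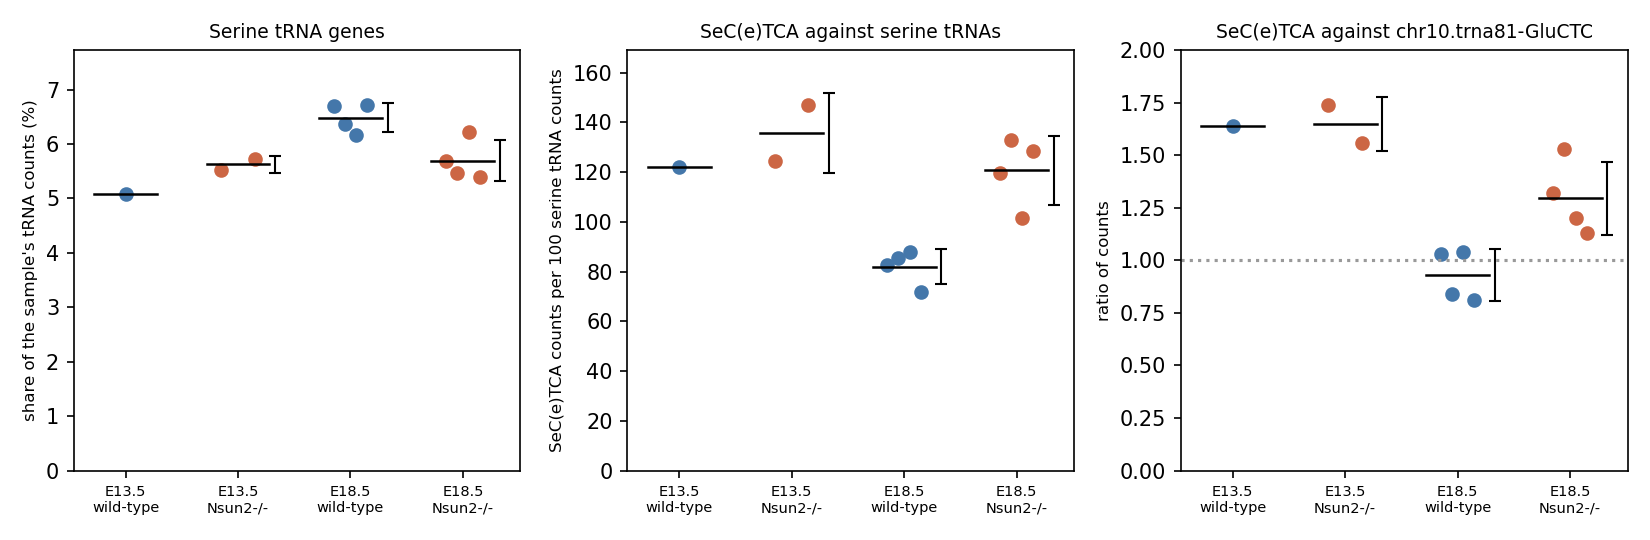
Points are samples by group, with bars for the mean and error bars for the SD, showing the share of all serine tRNA genes in percent, SeC(e)TCA counts per 100 serine tRNA counts, and the ratio of SeC(e)TCA to chr10.trna81-GluCTC counts. The 4 E18.5 wild-type samples lie lowest in both ratios, at 71.9 to 88.1 per 100 serine counts and 0.81 to 1.04 times chr10.trna81-GluCTC. Both ratios hold the SeC(e)TCA counts of the E18.5 contrast known when the gene was picked.

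The genotypes were also compared for single serine genes. At E18.5, 9 were tested and edgeR called 0, with 1 at an unadjusted p below 0.05 and 0 called by DESeq2, a count to be read against the 9.43% called over all genes. Their log2 fold changes ran from −0.41 to 0.15 with a median of −0.23, against 0.02 over all 106 genes. At E13.5, 12 were tested and edgeR called 0, with 1 at an unadjusted p below 0.05 and 0 called by DESeq2, and the median was 0.07 against −0.06 over all 155 genes.

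Between stages a few serine genes were called, in both directions, where 29% of all 155 genes were called. Averaged over genotypes 2 of 12 rose and 2 fell, where 11.6% of all 155 genes rose and 17.4% fell. DESeq2 called 2 of the 12 and 31 of all 155. The list median was 0.09 against −0.11 over all genes. chr10.trna688-SerCGA rose by 0.74 on the log2 scale (SE 0.15, edgeR adjusted p = 0.00019), from 0.67% to 1.14% in Nsun2-/- and from 0.57% to 1.1% in wild-type. chr11.trna400-SerCGA rose by 0.68 (SE 0.24, edgeR adjusted p = 0.029), with 8 to 30 counts a sample.

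The 2 genes that fell averaged over genotypes had few counts. chr13.trna950-SerAGA had a log2 fold change of −1.85 (SE 0.47, edgeR adjusted p = 0.0027) with 0 to 30 counts, and chr13.trna115-SerGCT one of −1.37 (SE 0.40, edgeR adjusted p = 0.0092) with 2 to 14 counts. Within Nsun2-/- samples 3 of 12 passed the test, where 16.1% of all genes did. DESeq2 called 1 of the 12 and 13 of all 155. The 3 that passed in edgeR were chr10.trna688-SerCGA (0.68), chr13.trna950-SerAGA (−3.01) and chr13.trna970-SerGCT (−0.73), the last with 16 to 81 counts a sample. Within wild-type samples 2 of 12 passed, where 19.4% of all genes did. DESeq2 called 1 of the 12 and 22 of all 155. The 2 that passed in edgeR were chr10.trna688-SerCGA (0.80) and chr13.trna115-SerGCT (−1.93).

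The genes whose levels ran most like those of SeC(e)TCA were sought among the other 154 genes that passed the filter, by Pearson correlation of log2 TMM-normalized counts (CPM) over the 11 samples. The closest was chr2.trna586-HisGTG with r = 0.86, followed by chr3.trna752-GlyCCC with 0.83, chr11.trna1818-ArgTCT with 0.81, chr14.trna192-ProTGG with 0.79 and chr2.trna1432-HisGTG with 0.78. The points share their library and its depth, and the genes were picked for this value, so it is a description. The 2 histidine genes lie on the same chromosome, at chr2:122203684-122203795 and chr2:122201210-122201321.

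These genes had higher mean shares at E13.5 than at E18.5 in Nsun2-/- samples, as SeC(e)TCA did. Averaged over the genotypes, 4 of the 5 had a larger drop between stages than SeC(e)TCA on the log2 scale. chr3.trna752-GlyCCC went from 3.22% to 1.67% in Nsun2-/- and from 3.48% to 1.03% in wild-type samples, with a stage difference of −1.49 (SE 0.12) on the log2 scale. chr11.trna1818-ArgTCT went from 1.76% to 1.06% and from 1.25% to 0.64%. chr2.trna1432-HisGTG, the most counted of the 5 at 132 to 496 counts, went from 4.59% to 3.32% and from 3.07% to 2.72%. chr14.trna192-ProTGG rested on only 7 to 19 counts a sample, and its mean share in wild-type samples was 0.15% at E13.5 and 0.16% at E18.5. Between genotypes at E18.5 this gene was not among those tested. The other 4, in order of correlation, had log2 fold changes of 0.56, 0.72, 0.74 and 0.31, against 0.39 for SeC(e)TCA. The correlation holds this contrast, so these values are a description.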

How the data were processed

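Total RNA was freed of ribosomal RNA, size-selected for small RNAs, deaminoacylated and made into small RNA libraries. Per the methods, the authors trimmed adapters, aligned reads with bowtie and kept those with a single best place, tried unaligned reads again without their CCA end, and discarded reads that ran too far past a tRNA gene. They deposited raw counts per tRNA gene from featureCounts 1.4.4, per the file headers without a strand option. The headers name an mm9 tRNA annotation while the methods and labels name mm10. Of the 433 intervals, 3 match a RefSeq GRCm38 tRNA gene after 20 nt are taken from each end, so the coordinates are given as mm9. Total counts lay between 4011 and 9827 per sample. Sequences were copied from the study's fragment tables, of which no values were used, and RefSeq's tables hold no entry for this gene.

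Counts were tested with edgeR 4.0.16 (R 4.3.3) by the quasi-likelihood test after TMM normalization and the filterByExpr filter (minimum count 10), and p-values were adjusted by Benjamini-Hochberg over all genes tested, at a threshold of 0.05. E18.5 genotypes were compared in 8 samples and the other contrasts in 1 fit of all 11 samples in 4 groups. This was done since E13.5 has 1 wild-type sample, which is assumed to vary like the rest. In Nsun2-/- the SD of the SeC(e)TCA share was larger at E13.5 (1.1%, n = 2) than at E18.5 (0.391%, n = 4). Intervals and p-values of contrasts with E13.5 may therefore be too small. Standard errors were taken as the fold change on the log2 scale over the root of the F statistic. Shares have 95% Wilson intervals (scipy 1.17.1), and log2 CPM a prior count of 2. The fits were also run on simulated counts, whose true changes included none of the size estimated for SeC(e)TCA, so nothing about its values is drawn from them.

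The gene and the lists were chosen with earlier results of these data known. Named are SeC(e)TCA, the other selenocysteine row, the 2 genes next to it on either side by mean share (none lies above it), the 5 genes of highest correlation, and called serine genes, at most 5 per comparison. Families named beside its rank were picked after their values were seen. The methods describe 4 independent biological replicates per genotype, while E13.5 has 2 Nsun2-/- and 1 wild-type samples here. The labels do not tie samples to animals. Replicate numbers come from the labels. Alternatives were DESeq2 1.42.0, library size, upper-quartile normalization, 2 other filters, the replicate number as a block, samples left out, and families. Merging the closest pairs was added after seeing the data.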

Additional observations from a re-analysis of the deposited data

Results flagged for a closer look

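The SeC(e)TCA share of E18.5 wild-type sample 4, 4.83%, stood apart from the other 3 wild-type samples, of which the nearest had 5.44%. The gap was 0.865 of the range of the group, above Dixon's 95% limit for 4 samples. It was the only 1 of 10 combinations of group and measure to pass, and chance passes about 1 in 20. The same sample was lowest but within the limit by count, by TMM-normalized CPM, per 100 serine tRNA counts and in its ratio to chr10.trna81-GluCTC. It had the largest total of the E18.5 samples, 5924 counts. Without it the log2 fold change between genotypes at E18.5 was 0.37 and that between stages was −0.16.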

How the results depend on the processing

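The direction of SeC(e)TCA did not reverse in any of the alternatives run, in any of the 5 comparisons. Between genotypes at E18.5 the log2 fold change was 0.27 with upper-quartile normalization, further from 0.39 than the SD of 0.09 between samples, and 0.34 to 0.44 with 1 sample left out. At E13.5 it was 0.22 to 0.40 in other settings and 0.13 to 0.52 with 1 sample left out, never past the threshold. The stage difference averaged over genotypes, −0.32, lost its call with library size only (−0.20), upper-quartile normalization (−0.22), DESeq2 (−0.23), no filter (−0.22), and the closest pairs merged (−0.23), and ranged from −0.41 to −0.16 with 1 sample left out, where 5 of 10 kept the call. It lost it also without E18.5 Nsun2-/- sample 3 (edgeR adjusted p = 0.0515) and wild-type sample 3 (edgeR adjusted p = 0.0514). Within genotypes it passed with at least 10 counts in every sample, at −0.29 in Nsun2-/- and −0.36 in wild-type samples, and ranged from −0.48 to −0.09 and from −0.37 to −0.15 with 1 sample left out. The cause was not tested.

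Same-numbered samples at E18.5 correlated by 0.05, 0.16, 0.14 and 0.01 in their deviations over 155 genes, so that the numbers do not show a pairing. With the replicate number as a block the stage difference was −0.32 (edgeR adjusted p = 0.105), the E18.5 value 0.39, and 3 genes were called between genotypes at E18.5. That count, 10, was 4 with upper-quartile normalization, 6 by family, where fewer features are tested, and 4 to 9 with 1 sample left out. Between stages 45 genes were called, 19 by family, and 33 to 46 with 1 sample left out. The mean rank of SeC(e)TCA was 1.18 by gene and 3.27 by family. At these depths 3 counts are 0.031% to 0.075% of a sample.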
